A study of Mus musculus with 8 samples.

Results

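Ribosome biogenesis factors are the proteins that make, fold, cut and chemically modify ribosomal RNA (rRNA) and assemble it with ribosomal proteins. Here 42 mouse genes for nucleolar processing factors and RNA polymerase I were followed in 2 populations of regulatory T cells (Tregs), CD4+ T cells that restrain immune responses. The genes were taken by name from a list that leaves out the ribosomal proteins themselves, and each name was matched to its Ensembl gene in the deposited tables. All 42 were found among the 47069 Ensembl genes that both tables hold, and all 42 were among the 12273 genes that reached 1 FPKM in no fewer than 4 libraries and so were tested. FPKM, fragments per kilobase of gene and megafragment of library, is a level already divided by gene length and library depth.

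Both populations came from lymph nodes of C57BL/6 mice of 6 to 8 weeks of age that carried 2 reporters together, 35EbiT and a GFP knock-in at Blimp1. Ebi3-Treg cells were CD4+, CD25+, Thy1.1+ and Blimp1-. Blimp1-Treg cells were CD4+, CD25+, Thy1.1- and Blimp1+. The sort also took cells low for CD62L in both populations, per the labels' protocols, to a typical purity above 90%, and libraries were made with a low-input kit from 10 pg to 10 ng of RNA. Each population had 4 libraries, numbered 1 to 4. The labels do not say whether the libraries came from separate animals or from pools, so p-values speak only of the spread among these libraries, part of which may be technical.

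A ribosome begins in the nucleolus, where RNA polymerase I transcribes one long rRNA precursor. Small nucleolar ribonucleoproteins (snoRNPs) guide the modification and cutting of that precursor, box C/D particles by methylation and box H/ACA particles by pseudouridylation. Assembly factors and RNA helicases then lead the small and the large subunit along separate routes to the cytoplasm. T cells raise the output of this pathway when they are activated and grow, and the transcription factor Myc is a known activator of many of its genes, through the E-box letters CACGTG.

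The promoter windows of 5 members are shown because they show where the E-box lies, or that it is missing, in the genes whose values are given next. The windows are from RefSeq on the build GRCm38.p6, run 5′ to 3′ on the strand of the gene, and cover 250 bases before to 50 bases after the annotated start. Capitals mark CACGTG, which reads the same on both strands. The submitters' processing notes name the older build mm9, so the windows were joined to the data by gene name only.
Pes1 (chr11:3963725-3964024 on the plus strand): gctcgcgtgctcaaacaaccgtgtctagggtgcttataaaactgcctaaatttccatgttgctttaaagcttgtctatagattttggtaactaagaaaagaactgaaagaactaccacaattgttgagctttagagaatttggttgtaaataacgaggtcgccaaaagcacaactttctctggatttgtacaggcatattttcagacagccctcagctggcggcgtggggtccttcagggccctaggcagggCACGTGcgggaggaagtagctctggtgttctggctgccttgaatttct
Nop2 (chr6:125131633-125131932 on the plus strand): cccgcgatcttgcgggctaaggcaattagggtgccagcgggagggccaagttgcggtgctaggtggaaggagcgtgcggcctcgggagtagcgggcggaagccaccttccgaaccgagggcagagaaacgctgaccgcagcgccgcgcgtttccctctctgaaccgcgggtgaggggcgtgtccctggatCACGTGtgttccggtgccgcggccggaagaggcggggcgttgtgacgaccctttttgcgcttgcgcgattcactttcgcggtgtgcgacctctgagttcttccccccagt
Wdr43 (chr17:71615965-71616264 on the plus strand): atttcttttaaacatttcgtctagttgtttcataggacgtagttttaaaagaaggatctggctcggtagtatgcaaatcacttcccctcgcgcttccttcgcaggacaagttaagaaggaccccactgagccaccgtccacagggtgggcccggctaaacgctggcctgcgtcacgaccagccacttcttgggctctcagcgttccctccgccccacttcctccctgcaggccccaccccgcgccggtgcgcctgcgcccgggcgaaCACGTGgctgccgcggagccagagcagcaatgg
Grwd1 (chr7:45830740-45831039 on the minus strand): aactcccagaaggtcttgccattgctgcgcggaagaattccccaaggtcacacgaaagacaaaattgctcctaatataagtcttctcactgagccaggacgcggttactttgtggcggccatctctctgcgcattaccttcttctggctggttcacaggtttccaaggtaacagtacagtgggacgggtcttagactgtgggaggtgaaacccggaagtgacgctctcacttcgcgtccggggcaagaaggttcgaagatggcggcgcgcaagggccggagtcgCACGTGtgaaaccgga
Dkc1, with no such letters (chrX:75095604-75095903 on the plus strand): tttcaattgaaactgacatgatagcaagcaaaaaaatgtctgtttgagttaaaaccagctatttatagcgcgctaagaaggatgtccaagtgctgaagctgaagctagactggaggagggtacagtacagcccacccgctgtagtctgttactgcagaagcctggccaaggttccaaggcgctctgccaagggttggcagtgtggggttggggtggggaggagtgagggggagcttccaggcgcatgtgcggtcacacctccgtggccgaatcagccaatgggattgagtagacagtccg
The motif began 3 bases into the transcribed side in Pes1, 18 in Wdr43 and 35 in Grwd1, and 60 bases before the start in Nop2. Of the 42 members, 37 had a window and 9 of those 37 held the motif (24.3%). Among tested genes with a window, 1053 of 8840 held it (11.9%), and among all genes with a window 2187 of 27025 did (8.09%). In 8 of the 9 members the motif lay on the transcribed side of the start, which is 21.6% of the 37 members, against 1.99% of the tested genes with a window. Besides Pes1, Wdr43 and Grwd1 these were Utp4, Ltv1, Utp20, Mybbp1a and Tsr1. Between the populations, the median log2 fold change of the 9 members with the motif was 0.33 (range -0.02 to 0.58), and the 28 with a window and no motif had 0.29 (range -0.17 to 0.78). The 2 ranges overlap, and the difference between them was not tested. A match is a description of the letters in the window, and no binding was measured.

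The depth behind the FPKM values ranged from 13.3 to 25.6 M fragments (M, mega) in Ebi3-Treg libraries and from 14.7 to 31.3 M in Blimp1-Treg libraries, as read from the steps between low values. For a gene of 1 kb, each read added 0.0320 to 0.0750 FPKM. All 7 Treg markers checked (Foxp3, Il2ra, Ctla4, Ikzf2, Tnfrsf18, Cd4 and Cd3e) were at 1 FPKM or more in every library, and limma called 0 of them (1 lower, Cd3e, at an unadjusted p under 0.05). All 7 had a negative log2 fold change (median -0.27), and 3 were called lower with the library number as a block, against 8.94% of all genes. Their summed level was 2880, 4170, 2829 and 3093 FPKM in Ebi3-Treg 1 to 4, against 4386, 6274, 3689 and 3792 FPKM in Blimp1-Treg 1 to 4. Libraries 1 and 2 of both populations stand in one deposited table and libraries 3 and 4 in the other. The X-inactivation transcript Xist, chosen after its values were seen, was at 0.0750 and 0.0159 FPKM in Ebi3-Treg 1 and 2 and at 0.0256 and 0.00821 FPKM in Blimp1-Treg 1 and 2, while libraries 3 and 4 had 20.5 and 24.4 FPKM (Ebi3-Treg) and 23.4 and 18.5 FPKM (Blimp1-Treg). The table thus goes with the sex of the mice as Xist shows it, and each comparison is therefore made within tables. The summed level of 9 B cell markers was 273 FPKM for Ebi3-Treg 1, against 186 FPKM for Blimp1-Treg 1, and in the other libraries 49.9 to 74.2 FPKM (Ebi3-Treg) and 33.3 to 38.7 FPKM (Blimp1-Treg). Ebi3-Treg 1 and 2 also had the highest sums of 10 myeloid or dendritic cell markers, 109 and 93.7 FPKM, against 12.5 and 23.0 FPKM in Ebi3-Treg 3 and 4 and 6.58 to 34.9 FPKM in Blimp1-Treg. Most of that sum was Lyz2, and 4 of the 10 markers were under 1 FPKM in all 8 libraries. The sum of 7 stromal or endothelial markers was higher in Ebi3-Treg in every number, with 66.9, 31.0, 49.1 and 51.4 FPKM in Ebi3-Treg 1 to 4, against 32.4, 16.7, 29.2 and 34.3 FPKM in Blimp1-Treg 1 to 4, and 4 of the 7 were under 1 FPKM in all 8 libraries. The sum of 5 plasma cell markers was lower in Ebi3-Treg in every number (196 to 373 FPKM, against 231 to 414 FPKM in Blimp1-Treg), while 1 of the 4 tested, Derl3, was called higher (log2 fold change 1.72, limma adjusted p = 0.00207). The part of these cells in the results below was not tested.

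The comparison asks whether the machinery that builds ribosomes is transcribed at different levels in Tregs marked by Ebi3 and Tregs marked by Blimp1. Nearly all of its genes lay slightly higher in Ebi3-Treg, and 1 gene, Dkc1, passed the test. The log2 fold change (the log2(FPKM + 1) of Ebi3-Treg less that of Blimp1-Treg, which understates changes of low genes) was positive for 40 of the 42 members, with a median of 0.29. Over all 12273 genes tested, 59.2% were positive and the median was 0.07. With limma and Benjamini-Hochberg adjustment over all genes tested, Dkc1 was called higher, which is 2.38% of the members, and no member was called lower. The background is 6.29% of all genes called in either direction, and 3.37% of all genes called higher. The share of members called is thus near the background. At an unadjusted p under 0.05, 9 members (21.4%) were higher and 0 lower, against 11% of all genes higher. In bulk samples, more cells of a type and more RNA per cell cannot be told apart.

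Most members were higher in Ebi3-Treg in every number, while the size of the difference varied. The labels do not pair libraries by number. Setting each Ebi3-Treg library against the Blimp1-Treg library of the same number, 32 members (76.2%) were higher in all 4 differences and 0 were lower in all 4, against 28% of all genes higher in all 4. The median difference over the members was 0.38 for number 1, 0.31 for number 2, 0.25 for number 3 and 0.20 for number 4, and over all genes 0.12, 0.07, 0.04 and 0.04. The members' median thus exceeded that of all genes in each of the 4 differences. Without regard to number, all 4 Ebi3-Treg values lay above all 4 Blimp1-Treg values for 2 members, Dkc1 and Pes1 (4.76%), against 6.63% of all genes. Within tables, 13 members (31.0%) had both Ebi3-Treg values above both Blimp1-Treg values in each table, against 11.7% of all genes.

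Whether more than 1 member passes depends on how the spread between libraries is treated. Over genes, same-numbered libraries 1 and 2 deviated together within their table (correlation 0.85), but numbers 3 and 4 did not within theirs (-0.08). A fit with all 4 numbers as a block called 17 members higher (40.5%), against 13.5% of all genes. Without both libraries numbered 1, 13 members (31.0%) were called higher, against 9.06% of all genes, and without both libraries numbered 2, 12 members (28.6%), against 9.04%. All 3 of those sets held the same 9 genes, Ddx18, Dkc1, Gnl3, Mrto4, Nop16, Nop2, Nop56, Npm1 and Rcl1 (9 of the 17, of the 13 and of the 12). The 3 fits are not separate checks. They share libraries 3 and 4, and each takes the spread between libraries 1 and 2 out of its error. No member was called lower in any of them. Replicates 3 and 4 alone called 8 members higher (19.0%), against 5.51% of all genes, but fewer members were called with any 1 library left out. A fit of replicates 3 and 4 with no variance trend called 2, and its share of all genes was not taken. Replicates 1 and 2 alone called 0 members in limma, 0 of them at an unadjusted p under 0.05, and 0% of all genes, of which 419 were higher and 288 lower at an unadjusted p under 0.05. The median member log2 fold change was 0.35 in replicates 1 and 2 and 0.22 in replicates 3 and 4, against 0.10 and 0.04 over all genes. The difference of the contrast between the tables, fitted in limma as an interaction, passed for 0 members and 0% of all genes, and at an unadjusted p under 0.05 for 0 members and 203 genes.

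**Figure D1:**
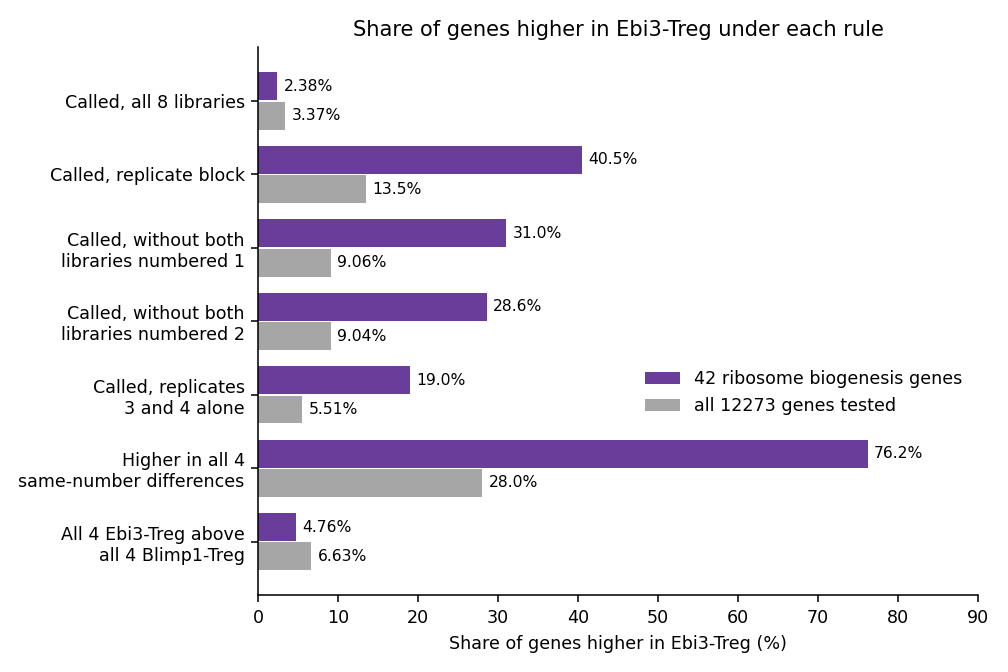
Share of genes higher in Ebi3-Treg (%, x axis) under each of 7 rules (y axis), for the 42 ribosome biogenesis genes (purple) and for all 12273 genes tested (grey). The members' share is below the background for the call over all 8 libraries (2.38% against 3.37%) and for complete separation of the populations (4.76% against 6.63%), and above it under the other 5 rules.

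**Figure D2:**
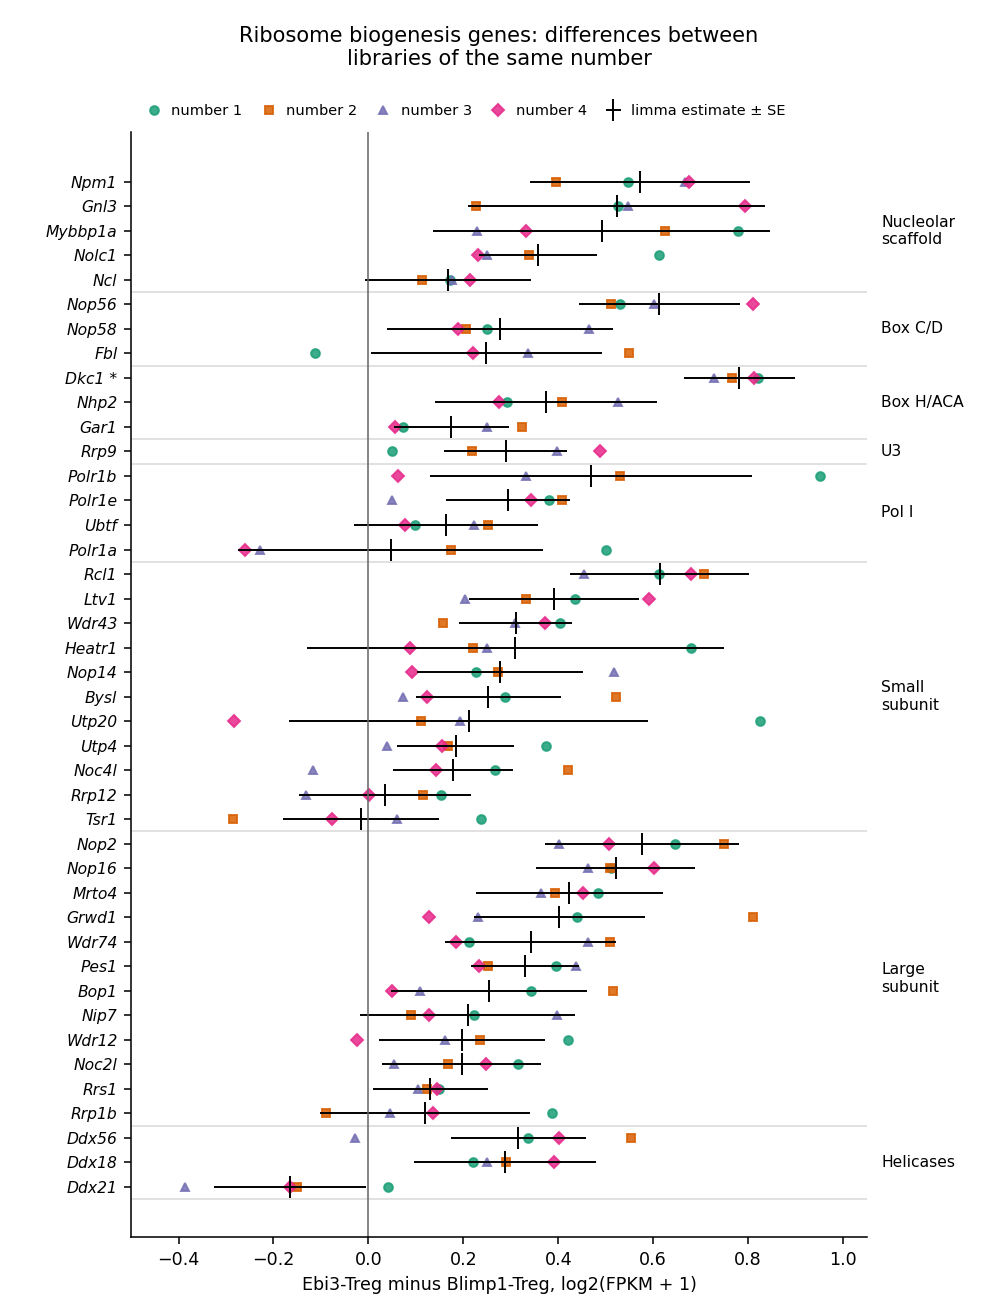
Difference of log2(FPKM + 1) between Ebi3-Treg and Blimp1-Treg libraries of the same number (x axis, 4 symbols) for each member (y axis, grouped by role), with the limma estimate and its SE as a black bar, and an asterisk for the 1 gene called. For 32 members all 4 symbols lie right of 0, and the 4 symbols of Dkc1 lie between 0.73 and 0.82.

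Dkc1 (ENSMUSG00000031403), the pseudouridine synthase of the box H/ACA particles and also a part of the telomerase particle, was the member with the smallest p. It had 129.95, 147, 109.8 and 117 FPKM in Ebi3-Treg 1 to 4, against 73.1, 85.9, 65.9 and 66.1 FPKM in Blimp1-Treg 1 to 4. The lowest Ebi3-Treg library was above the highest Blimp1-Treg library. Its log2 fold change was 0.78 (SE 0.12, limma adjusted p = 0.00791), a fold of 1.72, and higher in 4 of 4 same-number differences. It was called in all 20 other settings, with adjusted p from 0.000748 to 0.0461 and log2 fold changes from 0.73 to 0.82. Dkc1 lies on the X chromosome, and its exons overlap those of Mpp1 on the other strand in the GENCODE annotation, so reads from the 2 genes may be shared where the counting did not use strand. Its level was 0.822 times as high in libraries 3 and 4 as in 1 and 2 in Ebi3-Treg and 0.835 times in Blimp1-Treg, so the change of table moved it less than the change of population did.

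The other H/ACA core proteins among the members did not pass. Nop10, a core protein outside the member list, did not pass either (log2 fold change 0.17, SE 0.38, limma adjusted p = 0.913). Nhp2, which binds the RNA of the particle, had 44.9, 82.3, 21.8 and 19.2 FPKM in Ebi3-Treg 1 to 4, against 36.5, 61.9, 14.9 and 15.7 FPKM in Blimp1-Treg 1 to 4. Its libraries 1 and 2 were well above 3 and 4 in both populations, by a factor larger than the difference between populations, and the populations overlapped. The log2 fold change was 0.37 (SE 0.23, limma adjusted p = 0.489, and 0.0213 with the library number as a block). Gar1, a small protein that binds Dkc1, had 57.6, 65.7, 42.1 and 43.4 FPKM in Ebi3-Treg 1 to 4, against 54.7, 52.3, 35.3 and 41.7 FPKM in Blimp1-Treg 1 to 4. Each Ebi3-Treg library was above the Blimp1-Treg library of its number, by little in numbers 1 and 4, and the log2 fold change was 0.17 (SE 0.12, limma adjusted p = 0.55).

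In the box C/D core, Nop56 came closest to the threshold. Nop56, the scaffold protein that pairs with Nop58 and holds the methyltransferase fibrillarin (Fbl), had 278, 392, 224 and 237 FPKM in Ebi3-Treg 1 to 4, against 192, 275, 147 and 135 FPKM in Blimp1-Treg 1 to 4. In both populations Nop56 was highest in library 2 and next in library 1, and Blimp1-Treg 2 lay above Ebi3-Treg 3 and 4. Its log2 fold change was 0.61 (SE 0.17, limma adjusted p = 0.0786, and 0.00309 with the block), with adjusted p from 0.00309 to 0.357 over the other settings. Its exons hold snoRNA genes on the same strand and overlap those of Idh3b on the other strand.
Nop58 had 102, 177, 83.5 and 65.8 FPKM in Ebi3-Treg 1 to 4, against 85.5, 153, 60.2 and 57.6 FPKM in Blimp1-Treg 1 to 4. It was higher in all 4 same-number differences while library 2 of each population stood above the rest, and its log2 fold change of 0.28 (SE 0.24) had a limma adjusted p of 0.658, and 0.0472 with the block. Fbl, the methyltransferase itself, had 90.9, 199.7, 95.1 and 83.7 FPKM in Ebi3-Treg 1 to 4, against 98.2, 136, 75.1 and 71.7 FPKM in Blimp1-Treg 1 to 4. Ebi3-Treg 2 was far above the other Ebi3-Treg libraries, Ebi3-Treg 1 was below Blimp1-Treg 1, and the log2 fold change was 0.25 (SE 0.24, limma adjusted p = 0.717). Rrp9, which binds the U3 snoRNA of the small subunit processome, was far higher in libraries 3 and 4 than in 1 and 2, with 12.8, 14.3, 65.7 and 71.4 FPKM in Ebi3-Treg 1 to 4, against 12.3, 12.1, 49.7 and 50.6 FPKM in Blimp1-Treg 1 to 4. Within each table the Ebi3-Treg values were above the Blimp1-Treg ones, and replicates 3 and 4 alone gave a limma adjusted p of 0.0378, against 0.294 over all libraries.

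**Figure D3:**
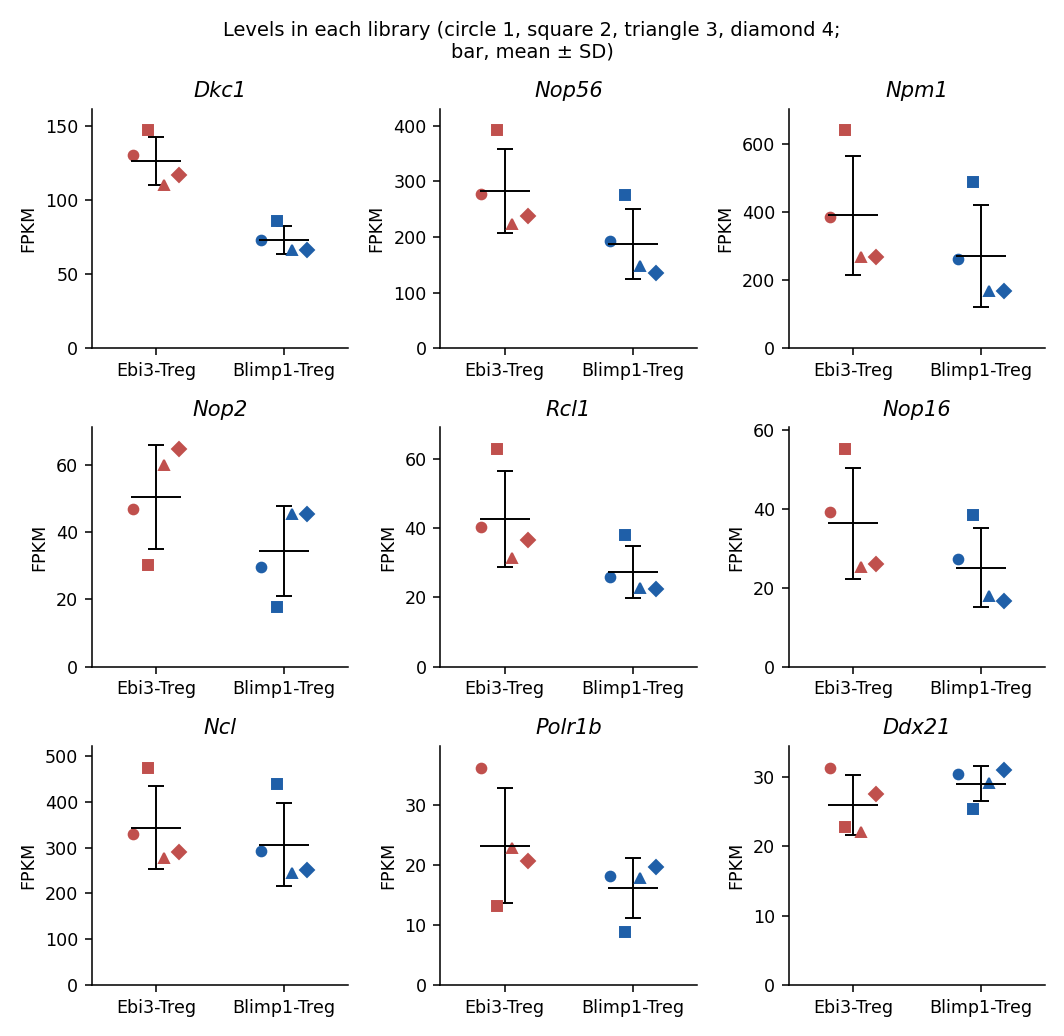
FPKM (y axis, from 0) of 9 members in each library of Ebi3-Treg (red, left) and Blimp1-Treg (blue, right), with the mean and SD of 4 libraries. Dkc1 separates the populations completely, with a lowest Ebi3-Treg value of 109.8 FPKM and a highest Blimp1-Treg value of 85.9 FPKM, while in Nop56, Npm1, Rcl1, Nop16 and Ncl library 2 (square) is the highest of its population, in Nop2 and Polr1b the lowest, and Ddx21 is the member with the most negative fold change.

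The nucleolar scaffold and regulatory proteins had the highest median log2 fold change of the role groups with more than 1 member, 0.49 over 5 genes. Limma called 0 of them (2 had an unadjusted p under 0.05, against 11% of all genes higher). With the block 4 passed, against 13.5% of all genes higher. Npm1, nucleophosmin, an abundant shuttling protein that forms the outer layer of the nucleolus, had 384, 639, 267 and 268 FPKM in Ebi3-Treg 1 to 4, against 262, 486, 168 and 168 FPKM in Blimp1-Treg 1 to 4. In each number the Ebi3-Treg library was higher, but library 2 stood so far above the others that the populations overlapped. The log2 fold change was 0.57 (SE 0.23, limma adjusted p = 0.233, and 0.00386 with the block), with adjusted p from 0.00249 to 0.692 over the other settings.
Ncl, nucleolin, an RNA-binding protein of early rRNA processing, had 329, 474, 276 and 291 FPKM in Ebi3-Treg 1 to 4, against 292, 438, 245 and 251 FPKM in Blimp1-Treg 1 to 4. The Ebi3-Treg library was above its Blimp1-Treg counterpart by little in every number, with a log2 fold change of 0.17 (SE 0.17, limma adjusted p = 0.737, and 0.132 with the block). Gnl3, nucleostemin, a nucleolar GTP-binding protein of proliferating cells, had 28.1, 55.9, 20.5 and 21.9 FPKM in Ebi3-Treg 1 to 4, against 19.2, 47.6, 13.7 and 12.2 FPKM in Blimp1-Treg 1 to 4. Library 2 was again the highest of each population, and its fold change of 0.52 on the log2 scale (SE 0.31) had a limma adjusted p of 0.461, and 0.0168 with the block.
Mybbp1a, a nucleolar protein that binds Myb, ran the other way across libraries, with 147, 55.8, 105 and 121 FPKM in Ebi3-Treg 1 to 4, against 85.5, 35.8, 89.5 and 95.5 FPKM in Blimp1-Treg 1 to 4. Library 2 was the lowest of each population, and number 2 still gave a higher Ebi3-Treg value (log2 fold change 0.49, SE 0.36, limma adjusted p = 0.576, and 0.0193 with the block). Nolc1, a chaperone of snoRNPs, averaged 35.9 ± 6.76 FPKM over the Ebi3-Treg libraries, against 27.5 ± 2.77 FPKM over the Blimp1-Treg libraries (SD, n = 4). Its log2 fold change was 0.36 (limma adjusted p = 0.16, and 0.0375 with the block).

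RNA polymerase I had the lowest median of the role groups. For its 3 subunits in the list and the factor Ubtf the median log2 fold change was 0.23, and limma called 0 of the 4, with or without the block, and 0 at an unadjusted p under 0.05. Polr1b, which with Polr1a forms the catalytic core, had 36.2, 13.2, 22.7 and 20.6 FPKM in Ebi3-Treg 1 to 4, against 18.2, 8.87, 17.9 and 19.7 FPKM in Blimp1-Treg 1 to 4. The gap was widest in number 1 and the populations overlapped (log2 fold change 0.47, SE 0.34, limma adjusted p = 0.573). Polr1a had 27.4, 10.9, 20.7 and 19.7 FPKM in Ebi3-Treg 1 to 4, against 19.1, 9.52, 24.5 and 23.7 FPKM in Blimp1-Treg 1 to 4. Ebi3-Treg was higher in numbers 1 and 2 and lower in numbers 3 and 4, and the log2 fold change of 0.05 (SE 0.32) changed sign to -0.10 without both libraries numbered 1. Polr1e, a subunit particular to this polymerase, averaged 27.3 ± 6.41 FPKM over the Ebi3-Treg libraries, against 21.9 ± 3.69 FPKM over the Blimp1-Treg libraries (SD, n = 4), and Ubtf, which opens rRNA genes for it, averaged 84.8 ± 14.7 FPKM over the Ebi3-Treg libraries, against 76.2 ± 16.2 FPKM over the Blimp1-Treg libraries. Both were higher in 4 of 4 same-number differences, with limma adjusted p of 0.282 and 0.786.

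Small subunit assembly held 11 members, with a median log2 fold change of 0.25, of which 10 were positive. Limma called 0 of them (2 had an unadjusted p under 0.05, against 11% of all genes higher). With the block 3 passed (Rcl1, Ltv1 and Wdr43), against 13.5% of all genes higher. Rcl1, an RNA cyclase-like protein that in yeast acts in early cleavage of the precursor, had 40.3, 62.9, 31.4 and 36.5 FPKM in Ebi3-Treg 1 to 4, against 25.98, 38.2, 22.7 and 22.4 FPKM in Blimp1-Treg 1 to 4. Each Ebi3-Treg library exceeded its same-numbered counterpart, although Blimp1-Treg 2 lay above Ebi3-Treg 3 and 4. The log2 fold change was 0.61 (SE 0.19, limma adjusted p = 0.114, and 0.00345 with the block).
Wdr43, a subunit of the complex that first joins the nascent rRNA, had 59.2, 59.6, 48.8 and 53.4 FPKM in Ebi3-Treg 1 to 4, against 44.5, 53.3, 39.2 and 41.00 FPKM in Blimp1-Treg 1 to 4. Ebi3-Treg was higher in every number and Blimp1-Treg 2 was the 1 library that lay among the Ebi3-Treg values (log2 fold change 0.31, SE 0.12, limma adjusted p = 0.206, and 0.0329 with the block). Ltv1, a late factor of the small subunit, averaged 36.9 ± 9.42 FPKM over the Ebi3-Treg libraries, against 28.1 ± 8.06 FPKM over the Blimp1-Treg libraries (SD, n = 4; log2 fold change 0.39, limma adjusted p = 0.301, and 0.0251 with the block). Of the same early complex as Wdr43, Utp4 averaged 30.1 ± 5.69 FPKM over the Ebi3-Treg libraries, against 26.1 ± 3.34 FPKM over the Blimp1-Treg libraries, and Heatr1 averaged 13.1 ± 6.07 FPKM over the Ebi3-Treg libraries, against 10.2 ± 4.74 FPKM over the Blimp1-Treg libraries (limma adjusted p = 0.529 for Utp4 and 0.834 for Heatr1). Heatr1 had 17.8, 4.17, 15.3 and 15.03 FPKM in Ebi3-Treg 1 to 4, against 10.8, 3.44, 12.7 and 14.1 FPKM in Blimp1-Treg 1 to 4. Library 2 of each population was far below the rest, and the SE of 0.44 on the log2 scale was the largest of the members.
The remaining factors did not pass in either fit, and Nop14 and Bysl were higher in 4 of 4 numbers. Nop14 averaged 34.7 ± 8.83 FPKM over the Ebi3-Treg libraries, against 28.4 ± 6.97 FPKM over the Blimp1-Treg libraries and Noc4l, whose yeast relative pairs with that of Nop14, averaged 88.2 ± 9.12 FPKM over the Ebi3-Treg libraries, against 77.6 ± 5.14 FPKM over the Blimp1-Treg libraries (SD, n = 4). Bysl, bystin, averaged 10.5 ± 2.11 FPKM over the Ebi3-Treg libraries, against 8.56 ± 1.07 FPKM over the Blimp1-Treg libraries and Utp20, the longest member by the length behind its FPKM values (8831 bases), averaged 4.59 ± 2.202 FPKM over the Ebi3-Treg libraries, against 3.84 ± 2.07 FPKM over the Blimp1-Treg libraries. Tsr1, a late-acting GTPase-like factor, had 44.4, 28.05, 28.5 and 29.4 FPKM in Ebi3-Treg 1 to 4, against 37.5, 34.4, 27.3 and 31.1 FPKM in Blimp1-Treg 1 to 4. Its populations overlapped throughout and the log2 fold change was -0.02 (SE 0.16), the 1 negative value among the small subunit factors.

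Rrp12, which in yeast aids the export of both subunits, differed more between the tables than any member did between the populations. It had 0.697, 0.275, 8.13 and 8.57 FPKM in Ebi3-Treg 1 to 4, against 0.526, 0.178, 9.001 and 8.57 FPKM in Blimp1-Treg 1 to 4. Libraries 1 and 2 were below 1 FPKM and libraries 3 and 4 above 8 FPKM in both populations. These values stand for 77 and 24 reads in Ebi3-Treg 1 and 2 and 71 and 15 in Blimp1-Treg 1 and 2, against 468 to 818 reads in libraries 3 and 4. Rrp1b, a nucleolar factor of the large subunit and of transcription, showed the same gap, with 11.5, 5.49, 58.8 and 58.7 FPKM in Ebi3-Treg 1 to 4, against 8.55, 5.904, 56.9 and 53.4 FPKM in Blimp1-Treg 1 to 4. On the log2(FPKM + 1) scale the mean of libraries 3 and 4 exceeded that of 1 and 2 by a fold of 6.36 in Ebi3-Treg and 7.30 in Blimp1-Treg for Rrp12, and 6.64 and 6.91 for Rrp1b. A gap of at least 4-fold in both populations was reached by these 2 members (4.76%), against 0.554% of all genes; Rrp9 lay just outside, with 4.79-fold in Ebi3-Treg and 3.87-fold in Blimp1-Treg. The length that turned the FPKM values into whole reads was the same in both tables for each of the 3 genes. Outside the members, such a gap was reached by 2 of 46 genes in the other small subunit list, Rrp7a and Rrp36. In the other large subunit list it was reached by 3 of 56, Rrp1, Rrp8 and Rrp15. These 5 were named after their values were seen. Rrp1 had 7.47, 6.61, 165 and 166 FPKM in Ebi3-Treg 1 to 4, against 5.41, 6.36, 151 and 144 FPKM in Blimp1-Treg 1 to 4. The gap was not particular to genes with an Rrp name, since 8 of the 82 ribosomal protein genes tested reached it too. All of these counts take a gap in either direction. Why these genes reach the gap was not tested. Table and sex cannot be told apart here. Nhp2 had the widest gap the other way, with libraries 3 and 4 at 0.348 times the level of 1 and 2 in Ebi3-Treg and 0.336 times in Blimp1-Treg. Between the populations, neither Rrp12 (log2 fold change 0.03, limma adjusted p = 0.965) nor Rrp1b (0.12, adjusted p = 0.881) passed.

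**Figure D4:**
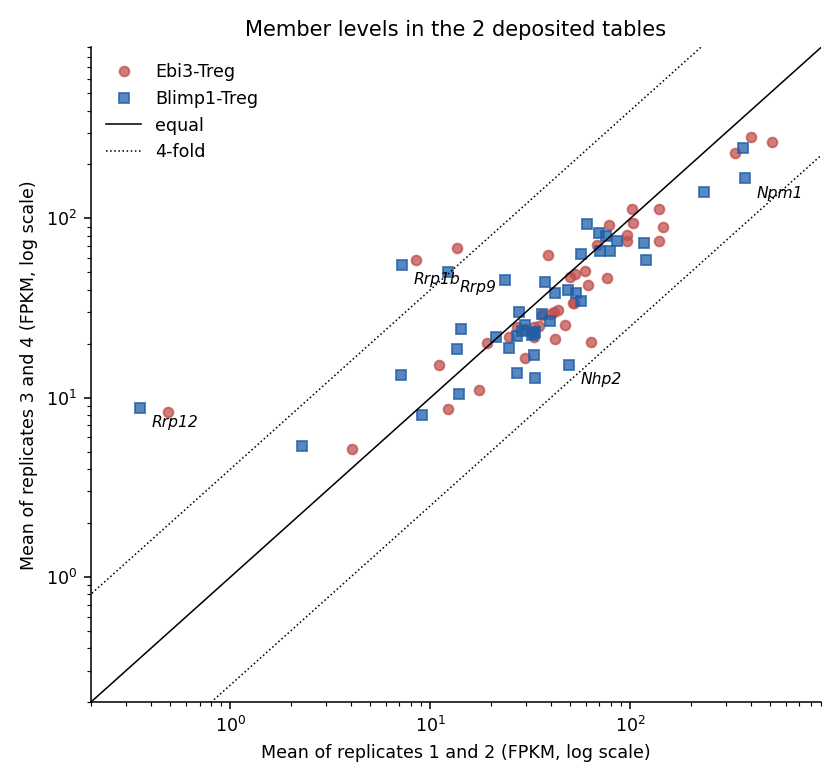
Mean FPKM of libraries 3 and 4 (y axis, log scale) against the mean of libraries 1 and 2 (x axis, log scale) for the 42 members in Ebi3-Treg (red circles) and Blimp1-Treg (blue squares), with the line of equality and dotted lines at 4-fold either way. Rrp12, Rrp1b and Rrp9 lie above the upper dotted line in both populations on this scale without the added 1 FPKM, and the other members lie between the dotted lines.

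Large subunit assembly held 12 members, all positive, with a median log2 fold change of 0.29. Limma called 0 of them (3 had an unadjusted p under 0.05, against 11% of all genes higher). With the block 5 passed (Nop16, Nop2, Pes1, Mrto4 and Wdr74), against 13.5% of all genes higher. Nop2, an rRNA cytosine methyltransferase whose promoter is shown above, had 46.8, 30.4, 60.2 and 64.8 FPKM in Ebi3-Treg 1 to 4, against 29.6, 17.7, 45.3 and 45.3 FPKM in Blimp1-Treg 1 to 4. Here libraries 3 and 4 were the higher ones, and Ebi3-Treg led in every number (log2 fold change 0.58, SE 0.20, limma adjusted p = 0.17, and 0.0052 with the block). Nop16, a nucleolar protein of early large subunit particles, had 39.2, 55.1, 25.1 and 25.9 FPKM in Ebi3-Treg 1 to 4, against 27.2, 38.5, 17.98 and 16.7 FPKM in Blimp1-Treg 1 to 4. It too was higher in every number with library 2 highest, and its log2 fold change was 0.52 (SE 0.17, limma adjusted p = 0.129, and 0.00497 with the block).
Pes1, Bop1 and Wdr12 form one complex, PeBoW, that is needed to cut the precursor on the large subunit side. Pes1 had 55.3, 50.02, 49.5 and 47.95 FPKM in Ebi3-Treg 1 to 4, against 41.8, 41.8, 36.3 and 40.6 FPKM in Blimp1-Treg 1 to 4. It varied little among the libraries of a population, and every Ebi3-Treg value exceeded every Blimp1-Treg value, by a log2 fold change of 0.33 (SE 0.11) that did not pass (limma adjusted p = 0.162, and 0.0259 with the block). Bop1 had 59.7, 40.5, 49.4 and 44.8 FPKM in Ebi3-Treg 1 to 4, against 46.9, 28.1, 45.7 and 43.2 FPKM in Blimp1-Treg 1 to 4, and Wdr12 had 16.7, 18.4, 9.86 and 12.1 FPKM in Ebi3-Treg 1 to 4, against 12.2, 15.5, 8.71 and 12.4 FPKM in Blimp1-Treg 1 to 4. Both overlapped between populations, so the partners of Pes1 showed smaller differences, with log2 fold changes of 0.25 (SE 0.21) for Bop1 and 0.20 (SE 0.17) for Wdr12, and whether they differ from that of Pes1 was not tested.
Mrto4, which in yeast holds the place of the stalk protein until late assembly, averaged 61.6 ± 21.7 FPKM over the Ebi3-Treg libraries, against 45.8 ± 16.8 FPKM over the Blimp1-Treg libraries (SD, n = 4; log2 fold change 0.42, limma adjusted p = 0.311, and 0.00794 with the block), and pseudogenes named after it could share its reads. Wdr74 averaged 43.05 ± 14.6 FPKM over the Ebi3-Treg libraries, against 33.3 ± 8.74 FPKM over the Blimp1-Treg libraries (log2 fold change 0.34, limma adjusted p = 0.384, and 0.0386 with the block). Grwd1, whose yeast relative escorts the ribosomal protein L3, had 33.6, 32.3, 22.3 and 27.4 FPKM in Ebi3-Treg 1 to 4, against 24.5, 17.99, 18.8 and 24.96 FPKM in Blimp1-Treg 1 to 4. Most of its difference lay in numbers 1 and 2, and its log2 fold change of 0.40 (SE 0.18) had a limma adjusted p of 0.291. Rrs1 averaged 26.97 ± 3.42 FPKM over the Ebi3-Treg libraries, against 24.6 ± 3.11 FPKM over the Blimp1-Treg libraries, Nip7 averaged 23.2 ± 9.61 FPKM over the Ebi3-Treg libraries, against 20.4 ± 9.94 FPKM over the Blimp1-Treg libraries, and Noc2l averaged 69.4 ± 12.2 FPKM over the Ebi3-Treg libraries, against 60.05 ± 7.45 FPKM over the Blimp1-Treg libraries (SD, n = 4), with log2 fold changes of 0.13, 0.21 and 0.20 and 0 of the 3 called in either fit.

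The 3 nucleolar RNA helicases differed in sign, and limma called 0 of them (0 had an unadjusted p under 0.05). With the block Ddx18 passed, against 13.5% of all genes higher. Ddx21, which acts in rRNA transcription and processing, had 31.3, 22.8, 22.1 and 27.5 FPKM in Ebi3-Treg 1 to 4, against 30.4, 25.4, 29.1 and 30.95 FPKM in Blimp1-Treg 1 to 4. Ebi3-Treg was lower in 3 of 4 numbers, and the log2 fold change of -0.17 (SE 0.16, limma adjusted p = 0.712) was the most negative of the 42 members. Ddx18, the relative of a yeast helicase of large subunit assembly, had 79.4, 127, 91.6 and 96.05 FPKM in Ebi3-Treg 1 to 4, against 67.97, 103, 76.9 and 73.00 FPKM in Blimp1-Treg 1 to 4. It was higher in 4 of 4 numbers (log2 fold change 0.29, SE 0.19, limma adjusted p = 0.525, and 0.0301 with the block). Ddx56, a helicase linked to large subunit assembly, averaged 85.6 ± 13.8 FPKM over the Ebi3-Treg libraries, against 68.2 ± 8.07 FPKM over the Blimp1-Treg libraries (SD, n = 4; log2 fold change 0.32, limma adjusted p = 0.293).

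The members spanned a wide range of levels. Averaged over the 8 libraries, Npm1 (330 FPKM) and Ncl (325 FPKM) were highest, followed by Nop56 (235 FPKM), Fbl (106 FPKM) and Dkc1 (99.3 FPKM), and Bysl (9.52 FPKM), Rrp12 (4.49 FPKM) and Utp20 (4.21 FPKM) were lowest. The values of Npm1 and Ncl overlapped over the libraries, as did those of Fbl and Dkc1, and differences between genes were not tested. In libraries 1 and 2 of both populations Utp20 lay above Rrp12 (1.28 to 6.60 FPKM against 0.178 to 0.697 FPKM). In libraries 3 and 4 it lay below (4.60 to 6.17 FPKM against 8.13 to 9.001 FPKM). The median level of the members was 41.6 FPKM over Ebi3-Treg libraries and 31.7 FPKM over Blimp1-Treg libraries, against 16.7 and 16.2 FPKM for all genes tested. Summed over the 42 members, the level was 2927, 3610, 2452 and 2532 FPKM in Ebi3-Treg 1 to 4 and 2239, 2812, 1973 and 1980 FPKM in Blimp1-Treg 1 to 4. The sum was higher in Ebi3-Treg in every number, and Blimp1-Treg 2 exceeded Ebi3-Treg 3 and 4. Across the 42 members the log2 fold change had Spearman's rho of -0.36 with gene length and 0.25 with level, against -0.03 and -0.07 over all genes, given as a description since genes share their libraries.

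Library 2 set long and short members apart. Among the 42 members, the log2 difference of library 2 minus library 1 had Spearman's rho of -0.51 with gene length in Ebi3-Treg and -0.40 in Blimp1-Treg, and over all genes -0.38 and -0.32. For library 4 minus library 3, rho was 0.10 in Ebi3-Treg and 0.35 in Blimp1-Treg over the members, and 0.10 and 0.04 over all genes. Members such as Npm1, Nop56 and Nhp2, short by the length behind their FPKM values (1037, 1072 and 934 bases), were highest in library 2, and Heatr1 and Utp20 (6537 and 8831 bases) were lowest there. These gene lengths are the shortest that make all 8 FPKM values whole reads. The same-number comparison sets libraries with the same slope side by side, and how much of the gain of calls under the block comes from it was not tested.

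**Figure D5:**
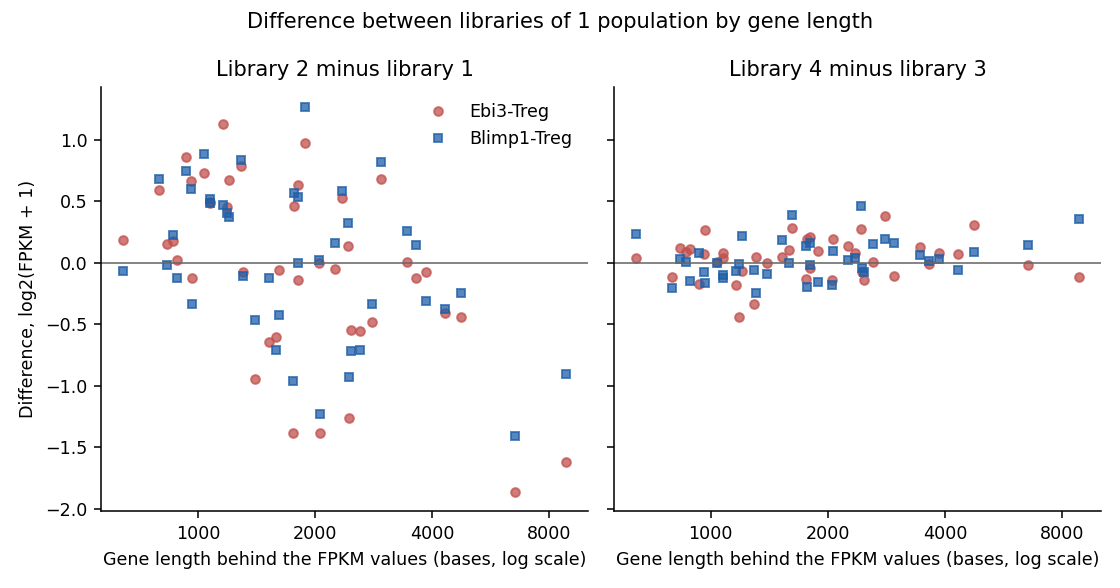
Difference of log2(FPKM + 1) between 2 libraries of the same population (y axis) against the gene length behind the FPKM values (x axis, bases, log scale), for the 42 members in Ebi3-Treg (red circles) and Blimp1-Treg (blue squares). In the left panel (library 2 minus 1) the points fall with length, with rho of -0.51 and -0.40, and in the right panel (library 4 minus 3) they stay near 0.

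Other genes of the pathway had smaller median differences than the members, with single genes as exceptions. The members and lists were chosen with earlier results known, and the difference between their medians was not tested. Over all genes, 3.37% were called higher and 2.93% lower. Under the block these were 13.5% and 8.94%, and 11% were higher at an unadjusted p under 0.05. Of 56 genes tested in the other large subunit list, 2 were called higher and 0 lower, near the background. In that list 51 were positive, the median log2 fold change was 0.18, and 9 were higher under the block. It also holds Nop10 and the snoRNP assembly factors Naf1, Shq1, Nufip1, Znhit3 and Znhit6. Mdn1, the giant ATPase that removes factors from large subunit particles, rose, with 34.2, 25.7, 31.7 and 27.5 FPKM in Ebi3-Treg 1 to 4, against 8.12, 4.82, 11.6 and 10.8 FPKM in Blimp1-Treg 1 to 4. The populations were far apart in every library (log2 fold change 1.70, SE 0.23, limma adjusted p = 0.00544), and it was called in all 20 other settings, with adjusted p from 0.0012 to 0.0257. Ppan, a factor of early large subunit particles, also rose, with 100.03, 96.7, 72.9 and 74.02 FPKM in Ebi3-Treg 1 to 4, against 61.9, 51.2, 45.3 and 50.7 FPKM in Blimp1-Treg 1 to 4. It did not overlap between populations (log2 fold change 0.70, SE 0.12, limma adjusted p = 0.0156) and was called in 14 of 20 other settings, with adjusted p from 0.00231 to 0.0708. Gnl2, a GTPase of the same route, averaged 121 ± 5.39 FPKM over the Ebi3-Treg libraries, against 87.3 ± 6.07 FPKM over the Blimp1-Treg libraries (SD, n = 4) and missed the threshold (log2 fold change 0.47, limma adjusted p = 0.0507). Of 46 other small subunit assembly genes tested, 0 were called, 38 were positive and the median was 0.13, with 3 called higher under the block. Those with the smallest p were Wdr46 (log2 fold change 0.58), Nob1 (0.30) and Tsr2 (0.46), and with limma 4 of the 46 had an unadjusted p under 0.05.
Of 16 other RNA polymerase I genes, 0 were called, 11 were positive and the median was 0.13, with 1 higher under the block and 0 at an unadjusted p under 0.05. The RNA exosome and rRNA nucleases had 15 genes tested, 0 called, 9 positive and a median of 0.15, with 3 higher under the block and 2 at an unadjusted p under 0.05, led by Exosc2 (0.40). RNA polymerase III, which makes the smallest rRNA and transfer RNAs, had 22 genes tested, 0 called, 15 positive and a median of 0.06, with 1 higher and 1 lower under the block and 0 at an unadjusted p under 0.05.

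The ribosomal proteins, which the 42 genes leave out, also lay higher in Ebi3-Treg. Of 82 tested, 79 were positive with a median log2 fold change of 0.50. Limma called 3 higher and 0 lower, which is near the background of 3.37% of all genes higher. Under the block 34 were higher, against 13.5% of all genes. The 3 were Rpl8 (0.72, SE 0.13, limma adjusted p = 0.0181), Rpl3 (0.65, SE 0.12, adjusted p = 0.0186) and Rps2 (0.60, SE 0.12, adjusted p = 0.0262). None of the 3 held in every setting, with the highest adjusted p at 0.503, 0.119 and 0.433. The median was 0.12 for the table of libraries 1 and 2 and 0.78 for that of 3 and 4, and the limma interaction of population and table passed for 0 of the 82, with 0 at an unadjusted p under 0.05. The summed level of the 83 genes was 17536, 30134, 11137 and 8898 FPKM in Ebi3-Treg 1 to 4 and 14492, 25656, 5871 and 5853 FPKM in Blimp1-Treg 1 to 4, so the spread between libraries exceeded the difference between populations. Many ribosomal protein genes have near-identical pseudogenes, and their values are uncertain where reads could be split.

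Myc rose in Ebi3-Treg, with 179, 118, 129 and 167 FPKM in Ebi3-Treg 1 to 4, against 61.6, 37.5, 45.99 and 57.1 FPKM in Blimp1-Treg 1 to 4. No Ebi3-Treg library came near a Blimp1-Treg one (log2 fold change 1.54, SE 0.21, limma adjusted p = 0.006; called in all 20 other settings, adjusted p 7.61e-05 to 0.0323). Of the 10 genes of the Myc and Max network tested, Mxd4, an antagonist of Myc, was also called higher (56.4 ± 8.12 FPKM over the Ebi3-Treg libraries, against 34.1 ± 2.39 FPKM over the Blimp1-Treg libraries, SD, n = 4; log2 fold change 0.70, limma adjusted p = 0.0236). Mxd3, another antagonist, was called lower (1.49 ± 0.782 FPKM over the Ebi3-Treg libraries, against 4.67 ± 1.23 FPKM over the Blimp1-Treg libraries; log2 fold change -1.23, limma adjusted p = 0.0195), and both calls were lost in some settings, with adjusted p up to 0.0975 and 0.085. Proliferation genes went the opposite way from the ribosome biogenesis factors. Of 20 tested, 12 were called lower in Ebi3-Treg, against 2.93% of all genes lower, and 16 were lower under the block, against 8.94%. Their median log2 fold change was -1.12, with 0 of the 20 positive. Rrm2, a subunit of ribonucleotide reductase, fell, with 45.3, 48.9, 17.4 and 20.2 FPKM in Ebi3-Treg 1 to 4, against 126, 137, 73.1 and 89.6 FPKM in Blimp1-Treg 1 to 4 (log2 fold change -1.76, SE 0.16, limma adjusted p = 0.00124). Birc5 (-1.65) and Ccnb2 (-1.52), both of mitosis, fell as well, with limma adjusted p of 0.00211 and 0.00406. Birc5 lost its call when the table was left out of the fit (adjusted p = 0.136), and Rrm2 and Ccnb2 were called in all 20 other settings.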

How the data were processed

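Gene-level FPKM values, 1 column per library, stand in 2 tables made and deposited by the authors. The tools named in the submitters' processing notes are TopHat2 2.0.12, Bowtie2 2.2.3 and HTSeq 0.6.1, with the build mm9. How fragments were counted, with or without strand, and on which annotation was not given in the sources used here. Rows that carry no Ensembl identifier (640 and 612) were dropped. Symbols, exon overlaps (GENCODE M21) and promoter windows (RefSeq, GRCm38.p6) came from reference tables joined by gene identifier or name. Depth and gene length were read from the steps of the FPKM values: for all 12273 genes tested, 1 length made the 8 values whole reads within a tolerance of 0.01, and the members had 15 to 22472 reads per library (median 1276). These figures bound counting error only, since PCR copies cannot be told from separate molecules.

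A linear model of log2(FPKM + 1) on population and table was fitted in limma 3.58.1 (R 4.3.3), with a variance trend and two-sided Benjamini-Hochberg adjusted p under 0.05 over all genes tested, after a check on simulated data. Tables were also fitted alone, with an interaction, and with the library number as a block. Deviations of same-numbered libraries from their population means had correlations of 0.62, 0.89, 0.53 and 0.54 (numbers 1 to 4, over genes). With the other number of the same table they were -0.27, -0.02, 0.56 and 0.61, so numbers 3 and 4 shared the table and not the number. Relative to the means within a table, the correlation was 0.85 in that of libraries 1 and 2, and -0.08 in that of 3 and 4. The labels do not pair the libraries.

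The members and gene lists were chosen with earlier results of these data known. The genes named are the members, Myc, the cell type markers, and the 3 of each list with the smallest p. Xist and the Rrp genes outside the members were named after their values were seen. Nop10 and the other snoRNP factors outside the members were named for their role. The promoters shown are the 4 members with the motif and the smallest p, and the called member without it. Alternatives covered pseudocounts of 0.1 and 5, filters, table and variance terms, rescaling and left-out libraries.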

Additional observations from a re-analysis of the deposited data

Results flagged for a closer look

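In 7 of 132 groups of 4 libraries, over the members and the other named genes, 1 library stood apart from the other 3 by more than Dixon's test allows at the 95% level, which chance does in about 1 of 20 groups. Of the 84 groups of members, 6 were of this kind, 4 of them in libraries numbered 2, 2 in libraries numbered 1 and 0 in the rest. Fbl, the box C/D methyltransferase, was at 199.7 FPKM in Ebi3-Treg 2, with the other Ebi3-Treg libraries between 83.7 and 95.1 FPKM. Ubtf, the factor of RNA polymerase I, was low in the same library, at 62.9 FPKM, with the others between 91.4 and 93.1 FPKM. Tsr1 of the small subunit was at 44.4 FPKM in Ebi3-Treg 1 and between 28.0 and 29.4 FPKM in the others. Mybbp1a was low in Blimp1-Treg 2, at 35.8 FPKM, where the other Blimp1-Treg libraries had 85.5 to 95.5 FPKM. Polr1b was low in that library too, at 8.87 FPKM against 17.9 to 19.7 FPKM in the others. Bysl was high in Blimp1-Treg 1, at 10.2 FPKM, with 7.94 to 8.14 FPKM in the others. Of the other named genes, Gnl2 was high in Blimp1-Treg 2, at 96.3 FPKM, with 83.3 to 85.1 FPKM in the others.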

How the results depend on the processing

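The median member log2 fold change stayed between 0.24 and 0.30 in all 20 other settings (SD of the 4 same-number medians 0.08), and 0.18 to 0.27 above that of all genes. Of 839 member values recomputed, 777 kept direction and side of the threshold, 44 came past it, 0 lost it and 18 changed sign. The replicate block called 17 members, 2752 genes and 74 listed pathway genes, against 1, 772 and 20 without it. In replicates 1 and 2 alone it called 13 members, on 1 residual degree of freedom. The share of all genes called in that fit was not taken, so the 13 are not read as a result about the members. Without both libraries numbered 1 the counts were 13, 1970 and 62, and without both numbered 2 they were 12, 1962 and 62. Rescaling to equal sums called 2 members and 716 genes, and quantile normalization 3 members, 996 genes and 35 listed genes. No filter gave 420 genes and 12 listed genes, and no table term 441 and 10. Leaving out 1 library gave 1 to 2 members, 341 to 771 genes and 8 to 35 listed genes. In replicates 3 and 4 alone fewer than 8 members were called with any 1 library left out, and no variance trend gave 2. A lone library was assumed there to vary like the others. Sign changes among uncalled members were Rrp12 at -0.0054 (pseudocount 5), -0.067 (quantile) and -0.0055 (without both numbered 1), Polr1a at -0.00071 (upper quartile), -0.016 (quantile) and -0.10 (without both numbered 1), and Tsr1 at 0.073 (without both numbered 2). Leaving out 1 library, the range was -0.26 to 0.24 for Polr1a, -0.17 to 0.48 for Utp20, -0.092 to 0.65 for Heatr1, -0.14 to 0.11 for Tsr1, -0.068 to 0.10 for Rrp12 and -0.075 to 0.30 for Rrp1b. The cause was not tested. Rrp12, at 15 to 77 reads in libraries 1 and 2, is limited most by depth.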
